A study of Mus musculus with 12 samples.

Results

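Voltage-gated and potassium ion channel genes were followed in the hypothalamus of obese mice given celastrol, withaferin A or their vehicle. The set was chosen by gene symbol: every gene whose symbol begins with Kcn and a letter (potassium channels), with Scn, a number and a or b (sodium channels) or with Cacn (calcium channels), and the Hcn genes (cation channels opened by hyperpolarization). That rule gave 130 of the 19938 genes with a value of their own. No measured difference entered the rule, although the channel genes were chosen with earlier results of these data known. Of the 130, 116 were bright enough to be tested. The other 14, with a mean log2 signal under the 25th percentile of all genes (5.81), were Cacna1f, Kcne1, Kcne2, Kcne3, Kcne4, Kcnj1, Kcnj14, Kcnk5, Kcnk18, Kcnrg, Kcnu1, Kcnv2, Scn10a and Scn11a.

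All mice were male C57BL/6J, 23 weeks old, and had been on a 45% fat diet since the age of 3 weeks, that is for 20 weeks. Every mouse, controls included, was first injected intraperitoneally with DMSO for 4 days. Daily injections then continued for 4 days with DMSO alone, with celastrol at 100 µg/kg or with withaferin A at 2 mg/kg. Celastrol is a plant triterpenoid and withaferin A a plant steroidal lactone, and the doses of the compounds differed. Each group had 4 arrays, 1 per biological replicate, and the labels do not say whether a replicate was 1 animal or a pool. The whole hypothalamus was measured, so that fewer cells of a type and less RNA per cell cannot be told apart in any value given here.

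Potassium channels pull a neuron back towards rest after a spike and set its resting potential, voltage-gated sodium channels carry the upstroke of the spike, and voltage-gated calcium channels couple it to transmitter release and to calcium signals. Pore-forming subunits rarely work alone: auxiliary subunits change their gating or bring them to the membrane. In the hypothalamus, ATP-sensitive potassium channels (pore Kcnj11 or Kcnj8 with the sulphonylurea receptor Abcc8 or Abcc9) tie firing to the energy state of the cell, M-type channels (Kcnq) and Girk channels (Kcnj3, Kcnj5, Kcnj6 and Kcnj9) answer to transmitters and hormones, and astrocytes and oligodendrocytes clear potassium through Kcnj10 and Kcnj16.

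The deposited values were log2 signals between 2.64 and 15.08 over 35556 probe sets, with array medians of 6.89 to 6.98 and correlations between arrays of 0.981 to 0.994. Hypothalamic identity markers were present: 19 of the 20 listed (among them Oxt, Avp, Pomc and Agrp) had a value of their own and all 19 passed the brightness filter. Of the 19, 16 lay below 0 with celastrol (median -0.15) and 13 with withaferin A (median -0.11). With celastrol 1 passed the threshold: Oxt, oxytocin, which fell by 0.40 (adjusted p = 0.0179). The highest celastrol value of the list, 0.63, did not pass. An unadjusted p under 0.05 was found for 8 (42.1%) with celastrol, 1 higher and 7 lower, beside 10.4% of all genes tested. With withaferin A 0 passed and 7 (36.8%) had an unadjusted p under 0.05, beside 15.7%. A list of 8 pituitary markers stood apart on the array of celastrol replicate 2, where its mean was 1.60 log2 units above the DMSO mean against 0.28 to 0.34 on the other celastrol arrays. Gh, growth hormone, read 10.96 on that array and 6.30 to 7.98 on the other 11. A list of 10 thalamic markers spread widely inside every group, from -0.42 to 0.55 among DMSO arrays, 0.75 the highest of the celastrol arrays and -0.23 the lowest of the withaferin A arrays.

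None of the 116 channel genes passed the threshold (limma, Benjamini-Hochberg adjusted p of 0.05 over the 14953 genes tested) in any comparison. For celastrol against DMSO, the count was 0 of 116 beside 0.769% of all genes tested. At an unadjusted p under 0.05, 11 channel genes (9.48%) were counted beside 10.4% of all genes: 6 were higher (4.19% of all genes) and 5 lower (6.25%). For withaferin A against DMSO it was again 0, in a comparison that called 0% of all genes, and 16 channel genes (13.8%) had an unadjusted p under 0.05 beside 15.7% of all genes. Of these, 10 were higher (6.62% of all genes) and 6 lower (9.11%). For withaferin A against celastrol it was 0 beside 0.0468% of all genes, with 14 (12.1%) under the unadjusted 0.05 beside 16.1%. A test for any difference among the 3 groups (the moderated F-test) called 0 of 116 beside 0.354% of all genes, and 15 (12.9%) had an unadjusted p under 0.05 beside 17.2%. At the unadjusted 0.05, with both directions counted, the share of channel genes was near or below that of all genes in the 4 tests. These tests share the same 12 arrays. For both compounds, genes counted as higher than DMSO were a slightly larger share of the channel genes than of all genes. Those counted as lower were a smaller share. The counts are small, and these shares were not tested against each other.

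The groups' 4 and 4 values did not overlap at all for 5 channel genes under celastrol (4.31%, beside 7.21% of all genes tested), 8 under withaferin A (6.9%, beside 7.6%) and 5 between the compounds (4.31%, beside 9.27%). The median log2 difference over the 116 genes was -0.01 for celastrol, where the median of all genes was -0.02. For withaferin A it was 0.04 beside -0.004. In the direct comparison it was 0.03 beside 0.01. Of the 116, 67 had a value below 0 for celastrol and 49 for withaferin A. With each array centred on its own median, which moves all genes alike, 61 of 116 lay below 0 for withaferin A, the channel median was -0.01 and the median of all genes was -0.05. A renewed quantile normalization left 44 below 0, with medians of 0.04 and 0.01. Without the array of withaferin A replicate 4 the channel median was -0.0006563. The celastrol median was 0.005 without celastrol replicate 4, and that of the direct comparison -0.0006952 without celastrol replicate 2. In the direct comparison 44 lay below 0, and 61 after the centring, which took the median of all genes from 0.01 to -0.02; 41 did after the renewed normalization.

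The fit also gave an interval for the difference in whole-hypothalamus array signal of each channel gene. Each interval is for 1 gene alone, without adjustment for the number of genes. The median standard error (SE) of a difference was 0.0788 log2 units, and the median absolute difference was 0.07 for celastrol and 0.08 for withaferin A. Under celastrol, 114 of the 116 genes had a 95% confidence interval that lay wholly within 1.5-fold of no change (0.58 log2 units) in either direction. The exceptions were Kcnc2, a fast potassium channel of rapidly firing neurons, with an upper bound of 0.60, and Kcnj13, an inward rectifier known from epithelia, with a lower bound of -0.64. Under withaferin A, 113 intervals lay within 1.5-fold, and those of Cacng1, Kcna7 and Kcnmb1 did not. Between the compounds, 112 did, and Cacna2d4, Cacng1, Kcnj13 and Kcnmb4os1 were the exceptions.

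**Figure D1:**
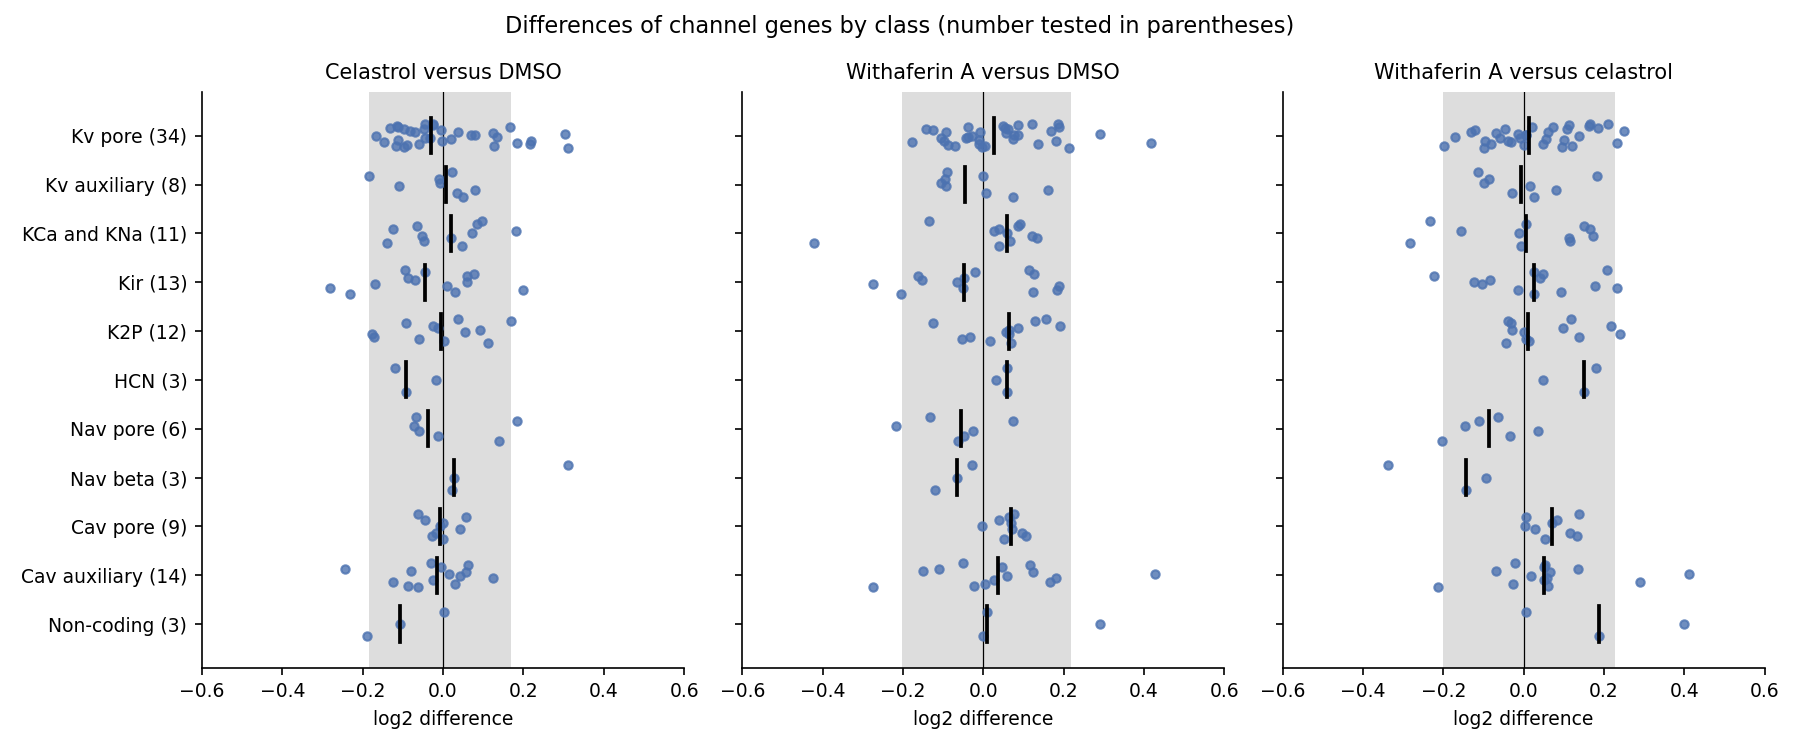
Log2 difference of each of the 116 tested channel genes (1 point each) by channel class, for celastrol against DMSO, withaferin A against DMSO and withaferin A against celastrol. Black ticks are class medians and the grey band spans the 5th to the 95th percentile of all 14953 genes tested, -0.18 to 0.17, -0.20 to 0.22 and -0.20 to 0.23; most points of every class lie inside the band.

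Among the 13 tested inward rectifiers, the glial pair Kcnj10 and Kcnj16 had the smallest p-values in both comparisons with DMSO. Kcnj10 (Kir4.1) carries the potassium uptake of astrocytes and oligodendrocytes, and Kcnj16 (Kir5.1) joins it in channels with a shifted pH response. Their genes lie on chromosomes 1 and 11, and their promoter windows are shown because both genes read below their DMSO mean on all 8 treated arrays while the windows differ in make-up. Each runs from 250 bases before the start of a RefSeq transcript to 50 after it (GRCm38.p6, plus strand), and capitals mark every CG pair, of which Kcnj10 (chr1:172340960-172341259) has 21 and the most upstream of the 4 Kcnj16 windows (chr11:110967783-110968082) has 3.

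Kcnj10: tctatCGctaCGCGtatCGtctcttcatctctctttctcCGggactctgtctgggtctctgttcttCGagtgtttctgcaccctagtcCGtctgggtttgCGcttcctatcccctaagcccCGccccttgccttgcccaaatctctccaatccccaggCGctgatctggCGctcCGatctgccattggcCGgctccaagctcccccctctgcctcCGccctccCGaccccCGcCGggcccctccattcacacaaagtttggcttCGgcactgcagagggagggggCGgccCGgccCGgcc
Kcnj16: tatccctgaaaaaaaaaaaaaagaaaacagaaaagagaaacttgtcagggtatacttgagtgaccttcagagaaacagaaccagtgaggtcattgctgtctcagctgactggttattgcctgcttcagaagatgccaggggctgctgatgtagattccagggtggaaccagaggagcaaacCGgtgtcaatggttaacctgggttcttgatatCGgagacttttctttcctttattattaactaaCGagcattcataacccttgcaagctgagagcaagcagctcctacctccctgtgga

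The other Kcnj16 windows hold 8, 5 and 1 CG pairs, so none approaches the 21 of Kcnj10. Over the channel genes, 99 of 130 had a promoter window, 134 windows in all, with a median of 9 CG pairs against 7 over all 32851 windows. The letters TATAAA, searched on both strands, were in 7 of the 134 (5.22%), 1 of them a Kcnj16 window, and in 13.6% of all windows. Such a match is a description of the letters and not of a binding site.

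Kcnj10 read 11.12, 11.13, 11.00 and 11.18 log2 units in the DMSO replicates 1 to 4. It read 10.82, 10.89, 10.90 and 10.89 with celastrol and 10.90, 10.89, 10.81 and 11.00 with withaferin A. All celastrol arrays lay below all DMSO arrays, and the highest withaferin A array was level with the lowest DMSO array to 2 decimals. The difference was -0.23 ± 0.06 (SE, n = 4 per group, adjusted p = 0.0875) for celastrol and -0.21 ± 0.06 (adjusted p = 0.169) for withaferin A, neither past the threshold. It passed for celastrol in a fit with array weights (adjusted p = 0.0316), in one with an intensity trend (0.0229) and when only the brighter 50% of genes were tested (0.048), settings that called 219 and 195 of 14953 genes and 142 of 9969 in all. The withaferin A difference was -0.12 (adjusted p = 0.398) after a renewed quantile normalization.

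Kcnj16 read 9.53, 9.44, 9.28 and 9.39 with DMSO, 9.20, 9.22, 9.26 and 9.28 with celastrol and 9.04, 9.13, 9.12 and 9.24 with withaferin A. The withaferin A arrays all lay below the DMSO arrays, whereas the highest celastrol array reached the lowest DMSO array to 2 decimals. The difference was -0.27 ± 0.06 (adjusted p = 0.155) for withaferin A and -0.17 ± 0.06 (adjusted p = 0.298) for celastrol. Without DMSO replicate 3 the adjusted p for withaferin A was 0.0474, in a fit that called 172 of the 14953 genes where the full one called 0. Between the compounds Kcnj10 differed by 0.03 (95% interval -0.10 to 0.15) and Kcnj16 by -0.10 (-0.24 to 0.03).

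Markers of the glia that carry these channels were measured on the same arrays. The mean of 14 oligodendrocyte markers, set against the DMSO mean, was -0.04 to 0.03 on the DMSO arrays, -0.24 to -0.19 with celastrol and -0.30 to -0.08 with withaferin A. Of these 14 genes, 0 rose and 2 fell past the threshold with celastrol: Opalin, a myelin membrane protein (-1.003 ± 0.18, adjusted p = 0.0229), and Sox10, the transcription factor of the lineage (-0.39 ± 0.08, adjusted p = 0.0433). The list's median was -0.18, with 11 of 14 below 0. The markers did not all lie on 1 side: Mobp, a structural protein of myelin, had 0.31 ± 0.08 (adjusted p = 0.127). With withaferin A, 0 of 14 passed and 8 (57.1%) had an unadjusted p under 0.05, beside 15.7% of all genes tested. With celastrol 9 (64.3%) did, beside 10.4%. The mean of 10 astrocyte markers ran from -0.04 to 0.05 with DMSO, -0.07 to -0.02 with celastrol and -0.14 to 0.00 with withaferin A. Of the 10, 0 passed in either comparison. With celastrol 3 (30%) and with withaferin A 1 (10%) had an unadjusted p under 0.05, beside 10.4% and 15.7% of all genes tested. The part of the oligodendrocyte markers' shift in the Kcnj10 and Kcnj16 values was not tested.

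Of the other inward rectifiers, 0 passed the threshold. Kcnj11 (Kir6.2), the pore of the neuronal ATP-sensitive channel, differed by 0.03 (95% interval -0.13 to 0.19) with celastrol and by 0.12 (-0.03 to 0.28, adjusted p = 0.424) with withaferin A, and its vascular relative Kcnj8 by -0.05 and -0.02. Of the Girk subunits, Kcnj3 had -0.07 with celastrol and -0.15 with withaferin A, and Kcnj6 had 0.08 and 0.13 ± 0.05 (adjusted p = 0.273). Kcnj5 (Girk4) read 7.11, 7.18, 6.96 and 7.02 with celastrol against 6.71, 6.81, 6.96 and 6.91 with withaferin A, which put the highest withaferin A array just under the lowest celastrol array. The direct difference was -0.22 ± 0.07 (adjusted p = 0.183). Kcnj13 was scattered, at 5.67 to 6.32 with celastrol and 6.19 to 6.51 with DMSO (-0.28 ± 0.17, adjusted p = 0.607).

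**Figure D2:**
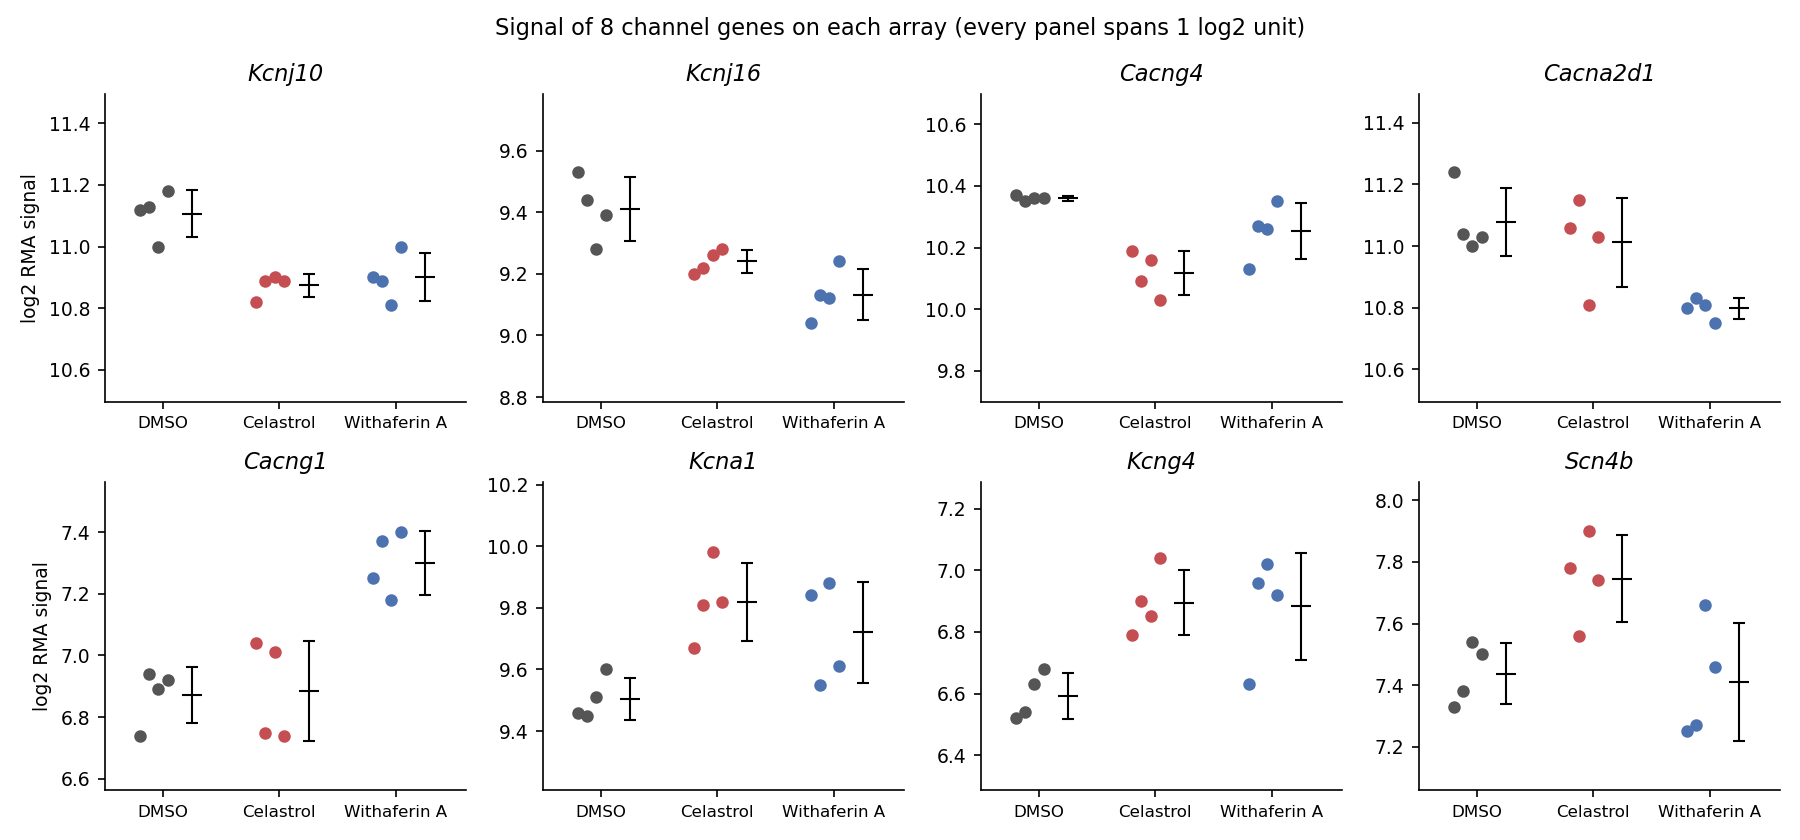
Log2 signal on each of the 12 arrays (points) with the group mean and SD (bar, n = 4) for Kcnj10, Kcnj16, Cacng4, Cacna2d1, Cacng1, Kcna1, Kcng4 and Scn4b; every panel spans 1 log2 unit. Celastrol arrays do not overlap DMSO for Kcnj10, Cacng4, Kcna1, Kcng4 and, narrowly, Scn4b. Withaferin A arrays do not overlap DMSO for Kcnj16, Cacna2d1, Cacng1 and, narrowly, Cacng4. Scn4b is level with DMSO under withaferin A.

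Of the 34 tested pore-forming Kv subunits, 0 passed in any comparison, and 13 lay above and 21 below 0 for celastrol. Kcna1 (Kv1.1), a low-threshold channel of axons that limits repetitive firing, read 9.46, 9.45, 9.51 and 9.60 with DMSO, 9.67, 9.81, 9.98 and 9.82 with celastrol and 9.84, 9.55, 9.88 and 9.61 with withaferin A. All celastrol arrays lay above all DMSO arrays, and the withaferin A arrays overlapped both. The difference was 0.31 ± 0.08 (adjusted p = 0.129) for celastrol, the highest of the 116, and 0.21 ± 0.08 (adjusted p = 0.256) for withaferin A. It passed for celastrol with an intensity trend (adjusted p = 0.0467).

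Kcng4 (Kv6.4), a silent subunit that works only when joined to a Kv2 pore, read 6.52, 6.54, 6.63 and 6.68 with DMSO, 6.79, 6.90, 6.85 and 7.04 with celastrol and 6.63, 6.96, 7.02 and 6.92 with withaferin A. Again the celastrol arrays all lay above the DMSO arrays, and withaferin A replicate 1 lay among them. The differences were 0.30 ± 0.08 (adjusted p = 0.141) and 0.29 ± 0.08 (adjusted p = 0.18). Without withaferin A replicate 1, which enters the pooled spread, the celastrol difference passed at an adjusted p of 0.0379, as did 207 of 14953 genes against 115 in the full fit.

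Kcna7 (Kv1.7), whose probe set was close to the brightness filter, read 5.69, 5.88, 5.83 and 5.84 with DMSO and 6.27, 6.24, 6.06 and 6.34 with withaferin A. Those groups did not overlap (0.42 ± 0.12, adjusted p = 0.169), while celastrol, at 5.66 to 6.34, spanned both. Kcnq3, a subunit of the M-current that holds back bursts, had 0.17 ± 0.08 (adjusted p = 0.502) with celastrol and 0.19 ± 0.08 (adjusted p = 0.288) with withaferin A. Kcnd3 (Kv4.3), an A-type channel that delays the next spike, had -0.03 and -0.04. Kcnh4, of the Elk branch of the ether-a-go-go family, differed by 0.25 ± 0.09 (adjusted p = 0.215) between the compounds, the celastrol mean being 7.18 and the withaferin A mean 7.43.

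Kv auxiliary subunits, 8 tested, held no called gene. Kcnab3, a beta subunit that binds Kv1 channels, had 0.16 ± 0.06 (adjusted p = 0.245) with withaferin A, and Kcnip3, a calcium sensor that binds Kv4 channels, had -0.18 ± 0.12 (adjusted p = 0.649) with celastrol and 0.00 with withaferin A. Kcne1l, of the single-span Kcne family, had -0.11 and -0.09. The 5 dim members of this class were the Kcne genes Kcne1 to Kcne4 and Kcnrg.

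Among the 11 tested calcium- and sodium-activated potassium channel genes was the large-conductance pore Kcnma1. It differed by 0.05 and 0.04 with celastrol and withaferin A (0.15 and 0.28 on its other probe set, dim at a mean signal of 4.77). Its beta subunit Kcnmb1, known from smooth muscle, read 7.05, 6.77, 6.89 and 7.00 with DMSO, 6.43, 7.04, 6.89 and 6.79 with celastrol and 6.24, 6.79, 6.42 and 6.58 with withaferin A. Withaferin A replicate 2 lay inside the DMSO range and the other arrays of its group below it (-0.42 ± 0.13, adjusted p = 0.192), the lowest difference of the 116. The mean of 8 pericyte and smooth muscle markers on the withaferin A arrays was -0.21, 0.03, -0.04 and -0.03. Replicates 1 and 2 were thus the lowest and the highest for Kcnmb1 and for the markers alike. That order was not particular to this list. On the same arrays oligodendrocyte markers had -0.30, -0.08, -0.17 and -0.15, and microglia markers -0.23, 0.00, -0.10 and -0.10. With celastrol the pericyte list had -0.09, -0.05, -0.08 and -0.09. The part of any of these cells in the Kcnmb1 value was not tested. The small-conductance channels of the afterhyperpolarization, Kcnn2 and Kcnn3, had 0.18 ± 0.08 (adjusted p = 0.459) and -0.13 ± 0.07 (adjusted p = 0.6) with celastrol.

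The 12 tested K2P genes, whose channels leak potassium at rest, gave 0 calls. Kcnk3 and Kcnk9 (Task-1 and Task-3), the acid-sensitive leak channels, had -0.01 and 0.04 with celastrol and 0.09 and 0.16 ± 0.07 (adjusted p = 0.291) with withaferin A. Kcnk13 (Thik-1) had -0.17 ± 0.07 (adjusted p = 0.372) with celastrol. Kcnk15 read 7.24, 7.07, 7.22 and 7.03 with celastrol and 7.42, 7.46, 7.31 and 7.33 with withaferin A, with no overlap (0.24 ± 0.09, adjusted p = 0.217).

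Pacemaker current is carried by the Hcn channels, of which Hcn2, Hcn3 and Hcn4 had a single-gene value. All 3 lay below DMSO with celastrol (-0.09, -0.02 and -0.12) and above it with withaferin A (0.06, 0.03 and 0.06), none past the threshold. These signs were not stable for every gene: with celastrol, Hcn3 had 0.03 without DMSO replicate 3 and was also above 0 without celastrol replicate 3 or 4 and with array weights. With withaferin A, Hcn3 and Hcn4 had -0.01 and -0.02 without withaferin A replicate 4, Hcn4 had -0.01 without DMSO replicate 2, and Hcn3 had -0.01 with centred arrays, a scaling that lowered the median of all genes as well. Hcn2 read 10.34, 10.29, 10.47 and 10.46 with DMSO, 10.28, 10.18, 10.43 and 10.29 with celastrol and 10.40, 10.52, 10.50 and 10.37 with withaferin A, and the groups overlapped. Between the compounds it differed by 0.15 ± 0.06 (95% interval 0.01 to 0.29, adjusted p = 0.276).

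Of the 6 tested sodium channel pores, 0 passed in any comparison. For celastrol, withaferin A and the compounds against each other, 1, 0 and 1 had an unadjusted p under 0.05. The shares of all genes tested were 10.4%, 15.7% and 16.1%. Scn1a (Nav1.1), the main pore of fast-spiking inhibitory neurons, read 9.86, 9.95, 10.01 and 9.94 with celastrol and 9.81, 9.64, 9.85 and 9.65 with withaferin A, which narrowly did not overlap (-0.20 ± 0.07, adjusted p = 0.211). The DMSO arrays, at 9.63 to 9.89, overlapped both. Scn8a (Nav1.6), the pore of the axon initial segment, had 0.18 ± 0.07 (adjusted p = 0.356) with celastrol and 0.07 with withaferin A. Scn7a (Nax), a sodium-level sensor of glia in the circumventricular organs, had the lowest value of the class with withaferin A, -0.22 ± 0.13 (adjusted p = 0.426), and is named for it after the values were seen. Scn9a (Nav1.7), which amplifies slow inputs in hypothalamic neurons, had -0.07 and -0.13. Its other, dimmer probe set had -0.20 and -0.27, and 1 of the 2 probe sets had an unadjusted p under 0.05 with withaferin A.

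Scn2a (Nav1.2) had 14 probe sets, and they disagreed. The brightest, used here, gave -0.01 with celastrol and -0.05 with withaferin A. Over all 14, the withaferin A difference ran from -0.39 to 0.19, was below 0 in 12 and had an unadjusted p under 0.05 in 6, and the mean of the 14 gave -0.16 (adjusted p = 0.306). For celastrol the range was -0.09 to 0.16, with 6 below 0 and 1 under the unadjusted 0.05. A renewed quantile normalization turned the withaferin A value of the brightest probe set to 0.06.

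The sodium channel beta subunits modulate gating and anchor the pores. Scn4b, which supports the resurgent current that lets neurons fire fast, read 7.33, 7.38, 7.54 and 7.50 with DMSO, 7.78, 7.56, 7.90 and 7.74 with celastrol and 7.25, 7.27, 7.66 and 7.46 with withaferin A. Celastrol lay above DMSO on all 4 arrays without overlap (0.31 ± 0.10, adjusted p = 0.195), and withaferin A was level with DMSO (-0.03 ± 0.10, adjusted p = 0.906). Between the compounds the difference was -0.34 ± 0.10 (95% interval -0.54 to -0.13, adjusted p = 0.16). Scn2b, its neighbour on chromosome 9 in the order of protein-coding genes, had -0.14 ± 0.06 (adjusted p = 0.282) between the compounds and 0.02 for celastrol.

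The 9 tested calcium channel pores lay between -0.06 (Cacna1s) and 0.06 (Cacna1i) under celastrol. Of the 9, 0 had an unadjusted p under 0.05 with celastrol, beside 10.4% of all genes tested. Under withaferin A, 8 of 9 had values above 0 (7 of 9 with centred arrays) with a median of 0.07. Cacna1b, the N-type pore of presynaptic terminals, read 10.47, 10.49, 10.50 and 10.38 with DMSO, 10.43, 10.36, 10.39 and 10.55 with celastrol and 10.57, 10.56, 10.56 and 10.57 with withaferin A. The withaferin A arrays lay above every other array, narrowly so for celastrol replicate 4 (0.11 ± 0.05, adjusted p = 0.345 against DMSO). The P/Q-type pore Cacna1a had 0.00 and 0.05, the L-type pores Cacna1c and Cacna1d -0.02 and 0.04 with celastrol and 0.10 and 0.07 with withaferin A, and the T-type pores Cacna1g, Cacna1h and Cacna1i between -0.04 and 0.06 with celastrol and between 0.04 and 0.07 with withaferin A.

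**Figure D3:**
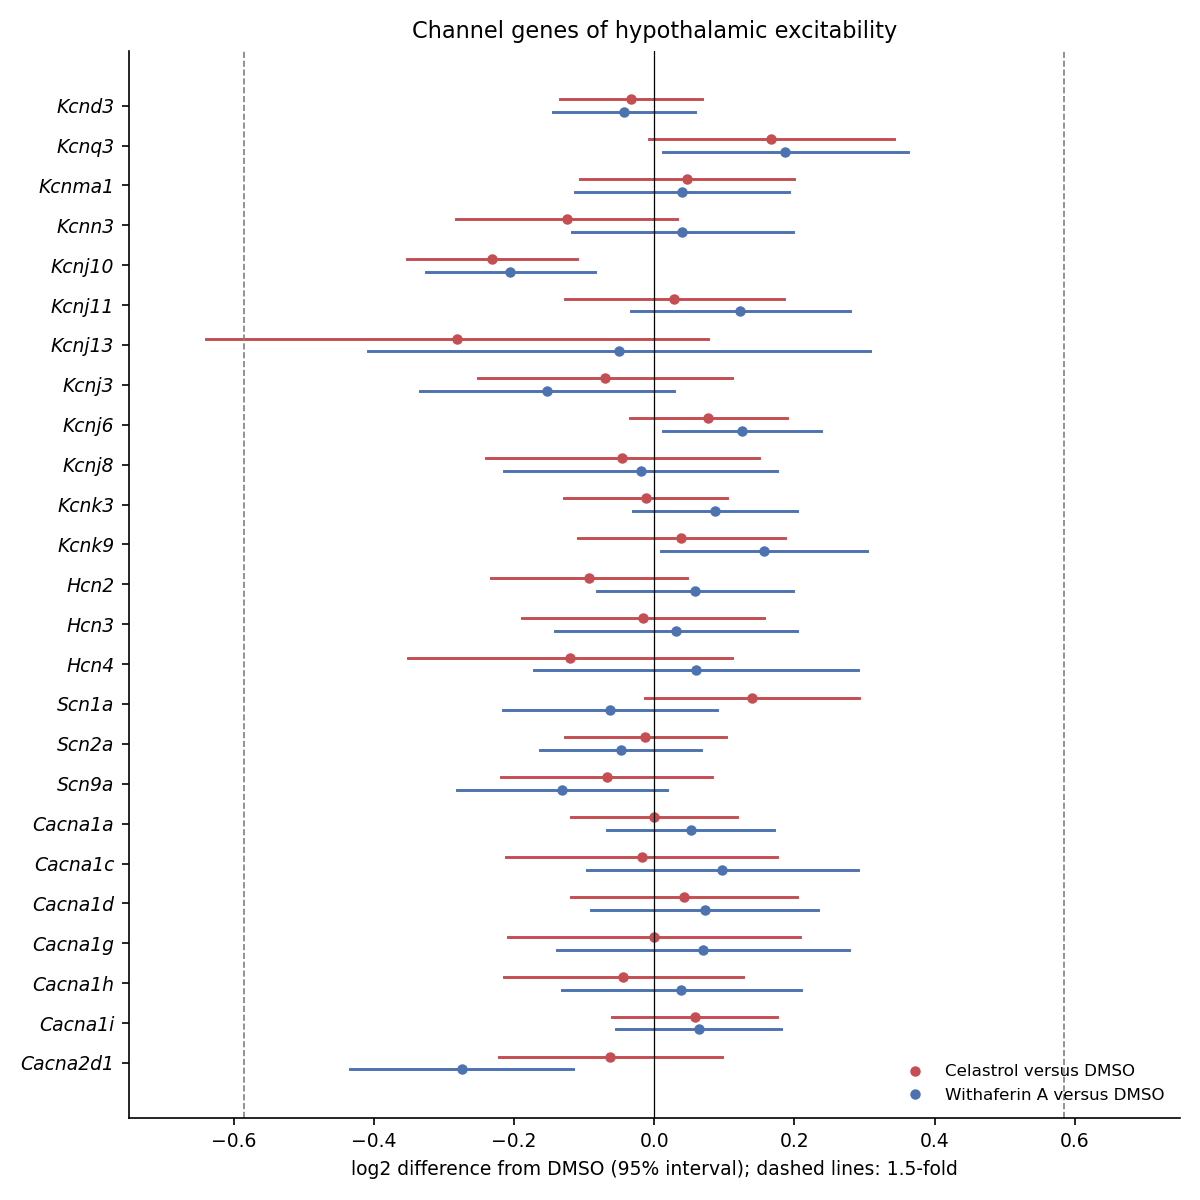
Log2 difference from DMSO with its 95% confidence interval for 25 channel genes known for a role in hypothalamic excitability, for celastrol (red) and for withaferin A (blue; limma, n = 4 arrays per group); dashed lines mark 1.5-fold (0.58 log2 units). The interval of Kcnj10 lies below 0 with both compounds and that of Cacna2d1 with withaferin A. With withaferin A those of Kcnj6, Kcnk9 and Kcnq3 lie above 0. None of these differences passed the adjusted threshold. The interval of Kcnj13 crosses the line at -0.58 for celastrol.

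The auxiliary subunits of the calcium channels held the smallest adjusted p of each comparison. Cacng4 belongs to the gamma subunit family and is best known as a partner of AMPA-type glutamate receptors. It read 10.37, 10.35, 10.36 and 10.36 with DMSO, 10.19, 10.09, 10.16 and 10.03 with celastrol and 10.13, 10.27, 10.26 and 10.35 with withaferin A. The celastrol arrays lay well below the DMSO arrays, and the withaferin A arrays also lay below them, although replicate 4 was level to 2 decimals. The difference was -0.24 ± 0.06 (adjusted p = 0.0713) for celastrol and -0.11 ± 0.06 (adjusted p = 0.362) for withaferin A. The celastrol value passed with array weights (adjusted p = 0.0357), with an intensity trend (0.0212), among the brighter 50% of genes (0.0376) and without withaferin A replicate 1 (0.0363).

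Cacng1, the gamma subunit of the skeletal muscle calcium channel and a neighbour of Cacng4 on chromosome 11, went the other way. It read 6.74, 6.94, 6.89 and 6.92 with DMSO, 7.04, 6.75, 7.01 and 6.74 with celastrol and 7.25, 7.37, 7.18 and 7.40 with withaferin A. The withaferin A arrays lay above all 8 others, and the difference was 0.43 ± 0.08 against DMSO (adjusted p = 0.11) and 0.41 ± 0.08 against celastrol (95% interval 0.23 to 0.59, adjusted p = 0.0823), the highest of the 116 in both. Its adjusted p in the F-test over the 3 groups was 0.0519. Cacng1 passed that test with an intensity trend, array weights, centred arrays, the mean of a gene's probe sets, or without withaferin A replicate 3. Those settings called 189, 195, 72, 64 and 81 of 14953 genes in all, against 53 in the full fit. Cacng1 has 1 probe set, so the probe set mean left its own values unchanged. Without DMSO replicate 3, as for Kcnj16, the difference from DMSO passed (adjusted p = 0.0474) along with 172 genes in all. Cacng5, on the other side of Cacng4 in the gene order, had values of 0.00 and 0.05.

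Cacna2d1, the alpha2-delta subunit that carries channels to the membrane and binds gabapentin, read 11.24, 11.04, 11.00 and 11.03 with DMSO, 11.06, 11.15, 10.81 and 11.03 with celastrol and 10.80, 10.83, 10.81 and 10.75 with withaferin A. The withaferin A arrays lay below all DMSO arrays (-0.27 ± 0.07, adjusted p = 0.168), whereas celastrol overlapped both (-0.06 ± 0.07, adjusted p = 0.84). The other Cacna2d1 probe set had -0.16 with withaferin A and -0.07 with celastrol. The other alpha2-delta genes Cacna2d2, Cacna2d3 and Cacna2d4 had -0.02, 0.00 and 0.17 ± 0.15 with withaferin A.

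The 3 non-coding loci named after channels were Kcnd3os, Kcnmb4os1 and Kcnmb4os2, which lie opposite channel genes. Kcnd3os had -0.19 ± 0.13 (adjusted p = 0.677) with celastrol and 0.00 with withaferin A. Kcnmb4os1 read 6.30, 6.02, 5.91 and 5.98 with celastrol and 6.49, 6.56, 6.25 and 6.51 with withaferin A, with celastrol replicate 1 above withaferin A replicate 3 (0.40 ± 0.09, adjusted p = 0.114). Kcnmb4, the beta subunit gene of that locus, had 0.17 ± 0.13 (adjusted p = 0.51) in the same comparison.

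Within groups, the channel genes were about as reproducible as other genes: the median within-group SD was 0.117 against 0.107 for all genes tested. The most variable of the tested channel genes was Kcnc2 (Kv3.2), chosen here for its spread after the values were seen, with a pooled SD of 0.29. It read 9.96, 9.56, 9.52 and 10.07 with DMSO, 10.18, 9.70, 10.39 and 9.71 with celastrol and 9.65, 9.85, 10.10 and 10.22 with withaferin A. The thalamic marker mean on the same arrays was 0.24, -0.37, -0.42 and 0.55, then 0.34, 0.03, 0.75 and -0.06, then -0.23, -0.05, 0.48 and 0.54. In every group the arrays with the 2 highest Kcnc2 values were those with the 2 highest thalamic marker means. The pattern was not particular to that list. The mean of 8 cortical and hippocampal markers was highest on the same arrays: 0.06 and 0.12 with DMSO, 0.14 and 0.15 with celastrol, 0.20 and 0.28 with withaferin A. The part of either tissue in the Kcnc2 values was not tested. The Kcnc2 difference was 0.22 ± 0.18 for celastrol (adjusted p = 0.737).

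**Figure D4:**
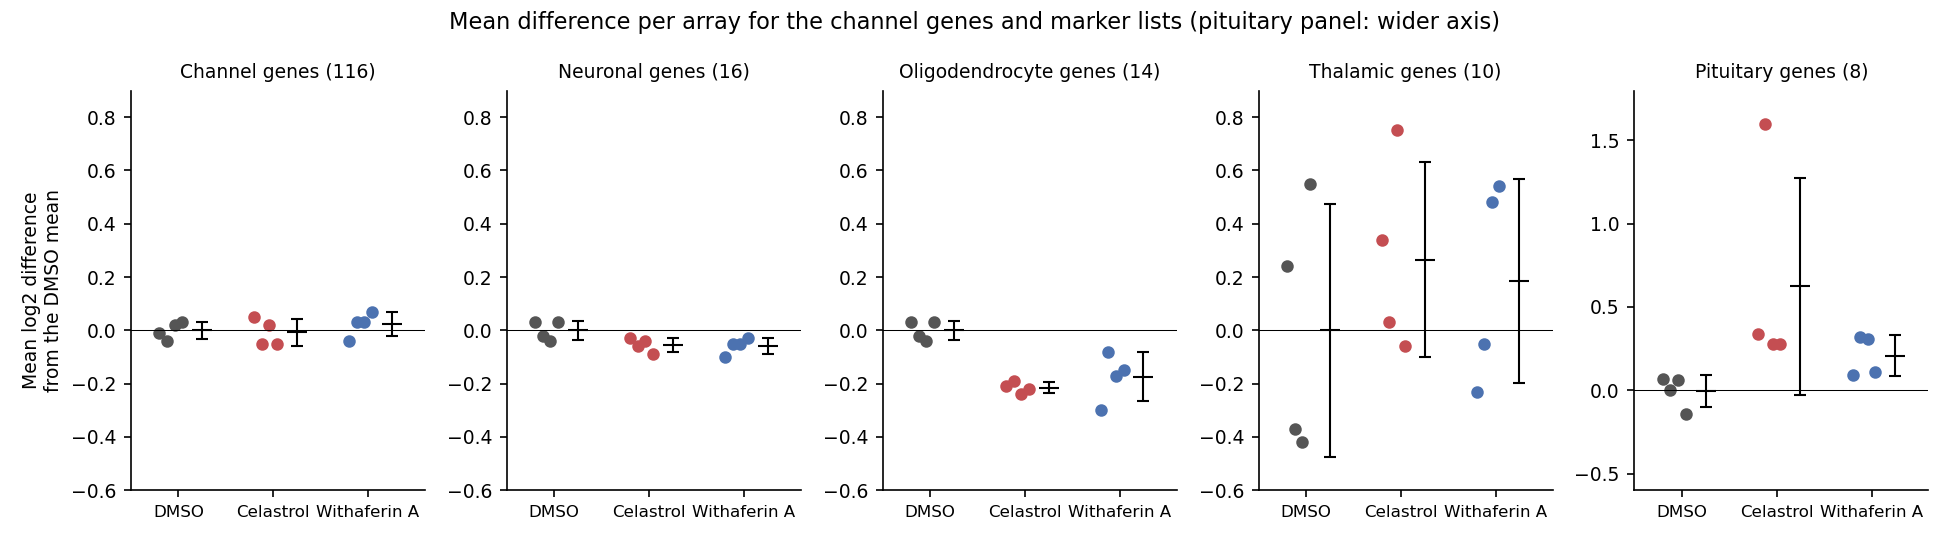
Mean log2 difference from the DMSO mean on each array (points), with the group mean and SD (bar, n = 4), for the 116 channel genes and for neuron, oligodendrocyte, thalamus and pituitary marker lists. The channel genes lie between -0.05 and 0.07 on all 12 arrays, the oligodendrocyte list is below DMSO on every treated array, and celastrol replicate 2 stands apart for pituitary markers at 1.60.

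Averaged over all 116 genes, the channel genes ran from -0.04 to 0.03 with DMSO, -0.05 to 0.05 with celastrol and -0.04 to 0.07 with withaferin A. Over all 14953 genes tested the mean spanned less, from -0.01 to 0.01, -0.03 to 0.02 and -0.02 to 0.01. The mean of 16 neuron markers ran from -0.04 to 0.03, -0.09 to -0.03 and -0.10 to -0.03 in the same groups. Of the 16, 13 lay below 0 with celastrol and 14 with withaferin A, and 0 passed against DMSO for either compound. An unadjusted p under 0.05 was found for 4 (25%) and 1 (6.25%), beside 10.4% and 15.7% of all genes tested.

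Genes that work with these channels were read from a list of 34 binding partners, of which 32 were tested. None passed in any comparison, and 2 (6.25%), 7 (21.9%) and 5 (15.6%) had an unadjusted p under 0.05 for celastrol, withaferin A and the compounds against each other, beside 10.4%, 15.7% and 16.1% of all genes tested. Abcc8, the sulphonylurea receptor that joins Kcnj11, had 0.09 with celastrol and 0.18 ± 0.07 (adjusted p = 0.256) with withaferin A. Nalcn, the sodium leak channel, had -0.05 and -0.01, and Ank3, the ankyrin that anchors sodium channels at the axon initial segment, had 0.04 and -0.01. The smallest p-values of the partners between the compounds belonged to the small GTPases Gem and Rrad, inhibitors of calcium channels, named after their values were seen. Gem read 6.00, 6.24, 5.94 and 5.93 with celastrol and 6.46, 6.48, 6.36 and 6.39 with withaferin A (0.40 ± 0.07, adjusted p = 0.0642), and Rrad read 6.72, 6.70, 6.76 and 6.89 against 7.16, 7.23, 7.02 and 7.28 (0.41 ± 0.10, adjusted p = 0.117). Neither pair of groups overlapped. Against DMSO, Gem differed by -0.19 ± 0.07 with celastrol and by 0.21 ± 0.07 with withaferin A. Rrad differed by -0.31 ± 0.10 and 0.10 ± 0.10, so that the larger of its 2 shifts was with celastrol. The Gem values with celastrol were close to the brightness filter (5.81).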

How the data were processed

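Total RNA of hypothalami was hybridised as biotin-labelled cDNA to 12 one-colour Affymetrix arrays, 4 per group. The deposited values are log2 signals that the authors made with RMA, per the submitters' processing notes; the software version is not given in the sources used here. Of 35556 probe sets, 21789 carried exactly 1 gene symbol in the array's annotation table, 1621 several and 12146 none, and 21698 of the 21789 matched a gene of the RefSeq table (GRCm38.p6). The probe set with the highest mean stood for a gene (999 of the 19938 genes had several), and genes under the 25th percentile were left out, leaving 14953.

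The means of the 3 groups were fitted to the 12 arrays with limma 3.58.1 (lmFit, eBayes; R 4.3.3; 9 residual degrees of freedom, prior 4.44), tests were two-sided and p was adjusted by Benjamini-Hochberg over all genes tested. Arrays give no counts, so their number limits the precision, and 0 pairs of arrays were identical. The scripts were tested on simulated data. The channel genes, classes and lists were chosen with earlier results of these data known. Genes were named where they had one of the 8 smallest p-values of a comparison or the smallest of their class, or belonged to a list of channels known for hypothalamic excitability; a few more are given as members of the same family, and exceptions are said to be so. Some channels of that list are not reported here. Alternatives covered the filter, probe sets, normalization, prior, array weights, samples in the fit, replicate block, each array left out and the threshold.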

Additional observations from a re-analysis of the deposited data

Results flagged for a closer look

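Among 141 groups of 4 values, 3 groups for each of the 46 named channel genes and 3 for the mean of all channel genes tested, 4 held 1 array far from the other 3 (2.84%; chance alone gives about 1 in 20 such groups). Cacna1d read 8.57 on DMSO replicate 2 against 8.50 to 8.51 on the others, and Cacna1h read 8.98 on withaferin A replicate 1 against 8.69 to 8.73. Cacna2d1 read 11.24 on DMSO replicate 1 against 11.00 to 11.04, an array that bears on its difference from withaferin A. Kcnj10 read 10.82 on celastrol replicate 1 against 10.89 to 10.90, on the far side from DMSO.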

How the results depend on the processing

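Counts of called channel genes, 0 in every comparison as reported, moved as follows. For celastrol they became 2 at an adjusted p threshold of 0.10, with only the brighter 50% of genes or with array weights, 3 with an intensity trend, and 0 to 2 when single arrays were left out (2 without withaferin A replicate 1). All genes called rose likewise, from 115 to 142 of 9969, 219, 195 and 207 of 14953 for the brighter genes, the weights, the trend and that array left out. For withaferin A they stayed at 0 except for a range of 0 to 2 with single arrays left out (2 without DMSO replicate 3, where all genes called went from 0 to 172), and between the compounds 1 passed at the 0.10 threshold. The test over the 3 groups called 1 at that threshold, with the mean of a gene's probe sets or with centred arrays, 3 with an intensity trend or array weights, and 0 to 1 with single arrays left out (1 without withaferin A replicate 1 or 3). In all, that test called 64, 72, 189 and 195 of 14953 genes with the probe set mean, centring, trend and weights. Without withaferin A replicate 1 or 3 it called 136 or 81, against 53 in the full fit. The withaferin A median of 0.04 became -0.00635 with centred arrays (all genes -0.0498) and ran from -0.0006563 to 0.05012 with single arrays left out. Among the partners, leaving out single arrays gave 0 to 1 for withaferin A against DMSO and between the compounds, and 1 for the latter without celastrol replicate 2 and withaferin A replicate 1 together. With the replicate number as a block, 0 channel genes passed in each comparison. That fit called 54, 0 and 7 of 14953 genes for celastrol, withaferin A and the compounds against each other, and 15 over the 3 groups. The replicate numbers did not pair the arrays: 2 of 12 correlations between same-numbered arrays were over 0.1 (range -0.281 to 0.119) and 1 of 12 arrays was nearest its own number. With every probe set tested and no filter, an alternative chosen after seeing the data, 0 of the 149 channel probe sets passed. Of all 35556 probe sets, 5 passed for celastrol, 0 for withaferin A and 0 between the compounds. Of 138 differences of 46 named genes, 98 kept their sign under all alternatives run and 40 did not. With 4 arrays a group, the median SE of 0.0788 sets what could be told from 0.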

Other observations

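Of the probe sets that carry several gene symbols, 3 include a sodium channel gene and stood outside the comparisons. The one shared by Scn2a, Scn9a and Scn3a had -0.07 with celastrol and -0.20 ± 0.15 with withaferin A, the one shared by Scn9a and Scn3a had -0.01 and 0.01, and the one shared by Scn3a and Scn1a had 0.02 and -0.10 ± 0.07 (log2 differences from DMSO, SE).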
